A study of Mus musculus with 15 samples.

Results

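The genes described here are 35 genes of fatty acid oxidation and ketogenesis in mouse liver, chosen by name and divided by the place where their products act. They comprise 4 genes of the carnitine shuttle, 10 of mitochondrial β-oxidation, 2 for a mitochondrial thioesterase and a ketone body enzyme, 8 peroxisomal genes, 5 microsomal ω-hydroxylases, 3 cytosolic genes and 3 regulators or related products. Of the 35 genes, 33 had a probe set on the array annotated to that gene alone, and all 33 passed the filter on low signals, among 10520 genes tested of 18193 with a probe set of their own. No probe set was matched to *Cyp4a32*, and *Cyp4a10* was matched only by a probe set that the annotation also gives to another *Cyp4a* gene. The 33 genes were represented by 58 probe sets, of which 55 were tested, and another 4 probe sets carried more than 1 gene symbol with a listed gene among them.

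The series holds liver RNA of 15 male C57BL/6J mice, each measured on 1 GeneChip Mouse Genome 430 2.0 array, with 5 mice on each of 3 diets. All mice were 8 weeks old when the diets began and ate them freely for 12 weeks. Control mice (NC) received CRF-1, a standard chow. CL mice received 60% cocoa butter mixed with 38.23% of that chow, to which 1.25% cholesterol and sodium cholate (0.5%) were added, a diet which produces steatohepatitis, and CL+CX mice received that diet with β-cryptoxanthin, a xanthophyll carotenoid. Its dose is 0.003% of the diet by the methods and by the treatment text in the labels, while sample titles read 0.005%. Every CL and CL+CX mouse thus also ate cholesterol and a bile salt, and the effect of the fat alone cannot be told apart from theirs.

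Long-chain fatty acids cross the mitochondrial membranes as carnitine esters and are then shortened in repeated cycles of β-oxidation to acetyl-CoA, from which the liver makes ketone bodies. Peroxisomes shorten very long chains, and microsomal cytochromes of the Cyp4a family hydroxylate the far end of the chain. In the liver, many of these genes are targets of the nuclear receptor PPARα, which fatty acids activate and which raises them during fasting.

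Levels are given as scaled signals, the authors' MAS5 intensities brought to the same 75th percentile, 54.1, on every array, so that array medians lay between 11.3 and 13.5. The signal of the probe set that stands for a gene lay above the array median on all 15 arrays for all 33 genes. Differences are log2 differences of group means with their standard error, from limma, and a gene was called when its p, adjusted by the Benjamini-Hochberg method over the 20340 probe sets tested, was under 0.05. These p-values measure the spread between the mice of a diet. Signals of different probe sets are not compared with each other, since probes differ in how well they bind. All 11 measured hepatocyte markers, *Alb* among them, lay above the array median on every array. In whole liver, fewer hepatocytes and less RNA per hepatocyte cannot be told apart. Mouse 2 of the CL group stood apart from the other CL mice: it had the highest signal of its group in 24 of the 33 genes. The median of the 33 genes, as log2 difference from the NC mean, was 0.11 in this mouse and -0.49 to -0.26 in the other 4 CL mice. Values without it are given beside the results. The mouse was picked out by these same genes, so leaving it out lowers their CL levels and spread by choice. Those values are no separate support for a lower level in CL.

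A binding site of PPARα with its partner RXR is written AGGTCANAGGTCA, that is, 2 copies of AGGTCA with 1 base between them. It was searched on both strands in the 250 bases before the gene start, in the RefSeq promoter table of build GRCm38.p6, with up to 2 mismatches in its 12 set letters. The table holds 27 of the 35 genes, and 4 of these (14.8%) had a match, compared with 3.72% of all genes and 3.24% of all promoters of this length. None of the 4 matches was exact. They were at chr12:84038306-84038378 (plus strand) before *Acot4*, chr13:91741351-91741483 (plus strand) before *Acot12*, chr6:71199752-71199878 (plus strand) before *Fabp1* and chr10:81092728-81092841 (minus strand) before *Creb3l3*. All 4 stretches are shown, whatever the calls of their genes. In CL against NC, *Acot4* and *Acot12* were called lower and *Fabp1* and *Creb3l3* were not called, and a link of the matches to the calls was not tested. The stretches run 5′ to 3′ on the strand of the gene, with the matched bases in capitals and up to 60 bases on either side. The first 3 matches lie on the opposite strand and therefore read as the reverse complement.
Acot4: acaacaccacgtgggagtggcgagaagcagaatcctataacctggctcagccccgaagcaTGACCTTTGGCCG
Acot12: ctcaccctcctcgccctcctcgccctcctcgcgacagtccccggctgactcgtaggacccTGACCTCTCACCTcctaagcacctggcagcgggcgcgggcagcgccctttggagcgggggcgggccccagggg
Fabp1: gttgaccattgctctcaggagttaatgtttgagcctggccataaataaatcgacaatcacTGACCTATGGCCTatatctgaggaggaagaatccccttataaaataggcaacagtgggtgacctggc
Creb3l3: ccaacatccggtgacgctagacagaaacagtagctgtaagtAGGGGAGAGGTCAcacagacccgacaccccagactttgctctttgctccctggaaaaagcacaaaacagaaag
The match before *Acot4* ends at the base before the gene start, that of *Fabp1* ends 54 bases before it, that of *Acot12* 97 bases and that of *Creb3l3* 196 bases before it. A match is a likeness of letters in this window and does not show that the receptor binds there.

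In the CL diet, 10 of the 33 genes (30.3%) were lower than in NC and none was higher. Among all genes tested, 6.78% were lower and 7.21% higher. Even at an unadjusted p under 0.05 none of the 33 was higher, where 12.2% of all genes were, and the methods' test called none higher either. The 10 were *Cpt1a* and *Crat* of the carnitine shuttle, *Acadvl*, *Hadha* and *Acaa2* of mitochondrial β-oxidation, the peroxisomal thioesterases *Acot3* and *Acot4*, the ω-hydroxylases *Cyp4a14* and *Cyp4a31*, and the cytosolic thioesterase *Acot12*. The fitted difference was below 0 in 31 of the 33 genes, with a median of -0.34 on the log2 scale against -0.08 over all genes tested. In 6 of the 33 genes (18.2%), every CL mouse was below every NC mouse, and the same held for 5.6% of all genes. Without CL mouse 2, 22 of the 33 genes (66.7%) were lower in CL, with 13.1% of all genes lower in that fit. With any 1 of the other mice left out, 5 to 8 were lower.

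**Figure D1:**
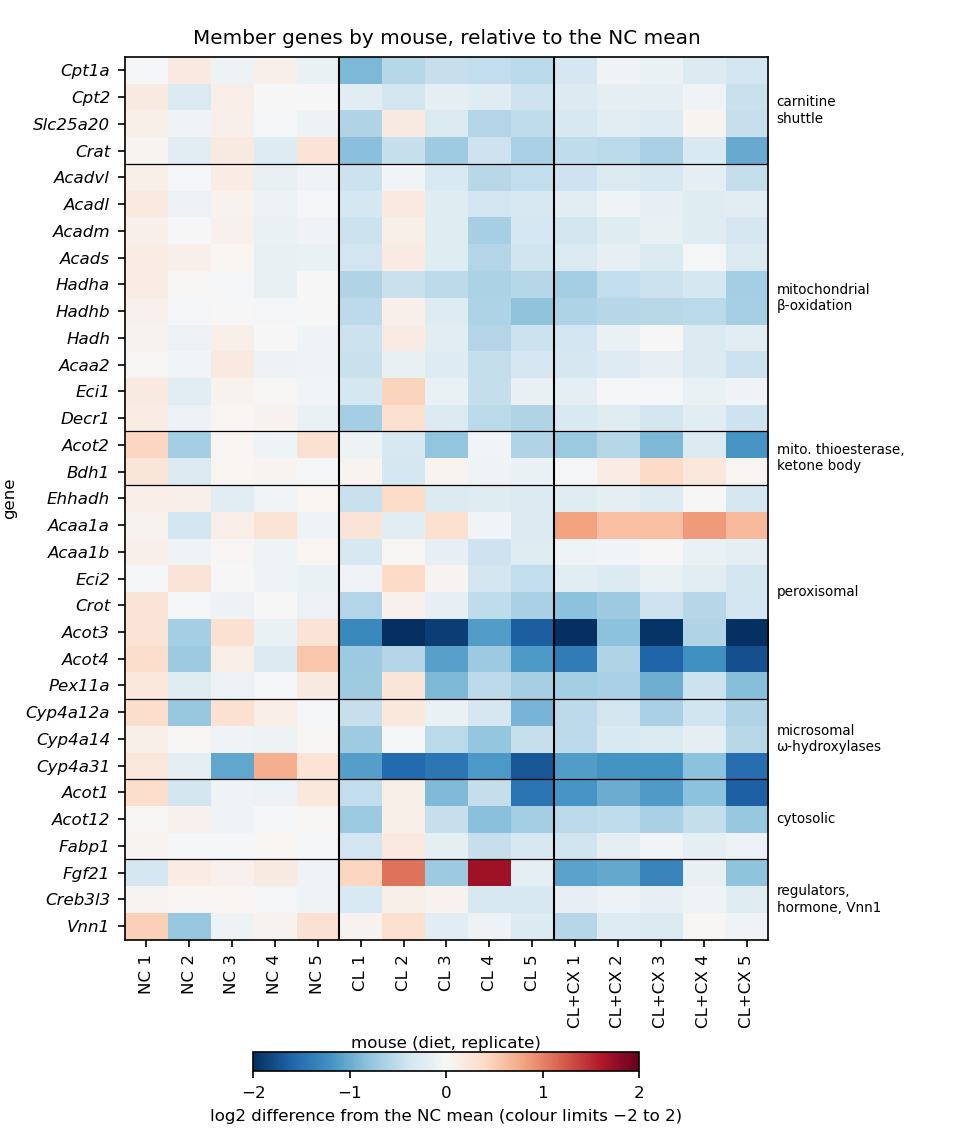
Colour shows the log2 difference of each gene (row) from its NC mean in each of the 15 mice (column, diet and replicate), for the 33 measured genes in the order of their roles. CL and CL+CX mice are blue in most rows, CL 2 is pale or red in most rows, and *Acot3*, *Acot4* and *Cyp4a31* are the darkest blue rows.

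The size of the median difference between CL and NC depends on how arrays are made comparable, while it was below 0 each time. In the signals as deposited, 18 of the 33 genes were below 0 and their median was -0.02, with 2 called, while the median of all probe sets stood at 0.23, so that the median of the 33 genes minus that of all probe sets was -0.25. With the common 75th percentile this difference of medians was -0.25 as well. After quantile normalization, 23 genes were below 0, the median was -0.17, its difference from that of all probe sets was -0.12 and 7 genes were called. The share of higher probe sets among all those called was 48.2% with the 75th percentile, 55.3% after quantile normalization and 96.2% in the signals as deposited.

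In the carnitine shuttle, 2 of 4 genes were lower in CL. The scaled signal of *Cpt1a*, the outer-membrane acyltransferase that controls entry of long-chain fatty acids, was 2322, 2674, 2202, 2542 and 2158 in the NC mice and 1266, 1604, 1725, 1689 and 1625 in the CL mice. All CL mice were below all NC mice, a 1.51-fold lower level (log2 -0.59, SE 0.12, adjusted p = 0.004). *Crat*, carnitine acetyltransferase, read 249.8, 205.9, 273, 202.6 and 290 in NC and 136, 175, 147.7, 181 and 154 in CL. These groups did not overlap either, with a 1.53-fold lower level in CL (log2 -0.62, SE 0.15, adjusted p = 0.0136). *Slc25a20*, the carrier for acylcarnitines, differed by -0.36 on the log2 scale (SE 0.15, adjusted p = 0.13), and its CL mouse 2, at 2184, was above all NC mice. *Cpt2*, the inner-membrane acyltransferase, differed by -0.28 (SE 0.11, adjusted p = 0.117). When CL mouse 2 was left out, 3 of these 4 genes were lower, *Slc25a20* included (log2 -0.50, adjusted p = 0.00959).

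In mitochondrial β-oxidation, 3 of 10 genes were lower in CL and all 10 were fitted below 0, between -0.55 and -0.13 on the log2 scale. *Hadha*, the α subunit of the trifunctional protein, read 1214, 1113, 1084, 996 and 1100 in NC. In CL it read 721, 810, 767, 709 and 740, so that the groups were well apart and the level was 1.47-fold lower (log2 -0.55, SE 0.10, adjusted p = 0.00266). Its SD among the CL mice, 0.08 on the log2 scale, was the smallest of the 33 genes, whose median SD in CL was 0.28.

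*Hadhb*, the β subunit of the same protein, read 2766, 2549, 2613, 2554 and 2621 in NC and 1824, 2824, 2188, 1716 and 1500 in CL. CL mouse 2 was above all NC mice and the other 4 were below them, and the difference did not pass the test (log2 -0.42, SE 0.14, adjusted p = 0.0639). Without that mouse it passed (log2 -0.55, SE 0.10, adjusted p = 0.00341). With all mice, another bright probe set of *Hadhb* differed by 0.10 between CL and NC (adjusted p = 0.736) and a dim one by -0.99 (adjusted p = 0.0552). In the RefSeq table the *Hadha* and *Hadhb* genes are neighbours that start on opposite strands, 272 bases apart.

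The acyl-CoA dehydrogenases carry out the first step of each cycle and differ in the chain length they accept. *Acadvl*, for very long chains, read 2404, 2162, 2473, 2007 and 2127 in NC and 1648, 2145, 1800, 1511 and 1587 in CL. The groups overlapped through CL mouse 2, and the gene was lower in CL with an adjusted p just under the threshold (log2 -0.37, SE 0.12, adjusted p = 0.0473). *Acadl*, *Acadm* and *Acads*, for long, medium and short chains, differed by -0.22, -0.31 and -0.29 on the log2 scale, with adjusted p of 0.257, 0.128 and 0.172. In each of these 3 genes CL mouse 2 had the highest signal of all 15 mice.

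*Acaa2*, the thiolase of the last step, read 4143, 3931, 4614, 3797 and 3880 in NC and 2969, 3659, 3390, 2925 and 3223 in CL. The groups did not overlap, and the level was 1.26-fold lower in CL (log2 -0.33, SE 0.10, adjusted p = 0.0428). *Hadh*, the dehydrogenase for short and medium chains, and *Eci1* and *Decr1*, which process double bonds, differed by -0.30, -0.13 and -0.35, with adjusted p of 0.166, 0.614 and 0.166. In the fit without CL mouse 2, 9 of the 10 genes of this group were lower in CL, and the exception was *Eci1* (log2 -0.28, adjusted p = 0.082).

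The 2 genes of the mitochondrial thioesterase and the ketone body enzyme did not pass the test. *Bdh1*, which interconverts acetoacetate and β-hydroxybutyrate, read 1774, 1230, 1547, 1559 and 1470 in NC and 1565, 1185, 1557, 1425 and 1379 in CL. These groups overlapped over most of their range (log2 -0.09, 95% interval -0.35 to 0.17, adjusted p = 0.69). *Acot2*, a thioesterase that releases long-chain fatty acids within mitochondria, differed by -0.38 (SE 0.22, adjusted p = 0.291).

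Of the 8 peroxisomal genes, 2 were lower in CL, both of them thioesterases. *Acot3*, which hydrolyses long-chain acyl-CoA, read 605, 318, 629, 463 and 606 in NC and 207, 107, 137, 235 and 162 in CL. All CL mice were below all NC mice, a 3.11-fold lower level (log2 -1.64, SE 0.33, adjusted p = 0.0051), and this was the largest difference of the 33 genes. *Acot3* had only 1 probe set, whose suffix marks probes that can match more than 1 transcript. A part of related *Acot* RNA in its signal was not tested. *Acot4*, which hydrolyses succinyl-CoA, read 199, 94.3, 172, 128 and 229 in NC and 94.8, 105, 73.7, 95.2 and 71.0 in CL. The lowest NC mouse fell among the CL mice, and the level was 1.8-fold lower in CL (log2 -0.85, SE 0.25, adjusted p = 0.0337).

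The enzymes of the peroxisomal cycle itself were not called. *Ehhadh*, the bifunctional enzyme, differed by -0.17 (SE 0.14, adjusted p = 0.464), *Acaa1b*, a thiolase, by -0.23 (SE 0.10, adjusted p = 0.168) and *Eci2*, an isomerase, by -0.10 (SE 0.15, adjusted p = 0.705). *Acaa1a*, the other thiolase, differed by 0.00 (SE 0.15, adjusted p = 0.996). *Crot*, which makes carnitine esters of the shortened chains for export to mitochondria, differed by -0.36 (SE 0.15, adjusted p = 0.132).

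*Pex11a*, a factor of peroxisome division, read 1194, 877, 950, 1018 and 1167 in NC and 633, 1226, 555, 718 and 653 in CL. CL mouse 2 was again above all NC mice and the other 4 CL mice below them (log2 -0.51, SE 0.19, adjusted p = 0.088). Without it, *Pex11a* was lower in CL (log2 -0.70, SE 0.13, adjusted p = 0.00355), and so were *Crot* and *Acaa1b*, which brought the peroxisomal genes called to 5 of 8.

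Of the 5 microsomal ω-hydroxylases, 3 were measured on their own probe sets, and 2 of these were lower in CL. *Cyp4a31* read 551, 409.5, 228, 776 and 569 in NC and 218, 159, 172, 211 and 143 in CL. All CL mice lay below the NC mice, whose SD of 0.67 on the log2 scale was the largest of the 33 genes in NC, and the level was 2.63-fold lower (log2 -1.40, SE 0.26, adjusted p = 0.00271). *Cyp4a14* read 7597, 7111, 6627, 6507 and 7114 in NC and 4244, 6824, 4811, 4093 and 5080 in CL. CL mouse 2 lay within the NC range and the other 4 below it, with a 1.42-fold lower level (log2 -0.50, SE 0.14, adjusted p = 0.0254). *Cyp4a12a* differed by -0.33 (SE 0.22, adjusted p = 0.358). The probe set annotated to more than 1 *Cyp4a* gene differed by -0.38 (adjusted p = 0.0507), which did not pass the test.

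Of the 3 cytosolic genes, 1 was lower in CL. *Acot12*, which hydrolyses acetyl-CoA, read 1039, 1084, 972, 996 and 1036 in NC and 612, 1115, 747, 576 and 634 in CL. CL mouse 2 was above all NC mice, the other 4 were far below them, and the level was 1.43-fold lower (log2 -0.52, SE 0.15, adjusted p = 0.0365). *Acot1*, a thioesterase for long-chain acyl-CoA, read 1476, 895, 1084, 1061 and 1338 in NC and 818, 1254, 626, 830 and 421 in CL, which overlapped (log2 -0.64, SE 0.24, adjusted p = 0.102). *Fabp1*, the fatty acid binding protein of liver, differed by -0.23 (SE 0.12, adjusted p = 0.234). Without CL mouse 2 all 3 were lower, with log2 differences of -0.83 for *Acot1*, -0.68 for *Acot12* and -0.34 for *Fabp1*. In the promoters shown above, those of *Acot12* and *Fabp1* each differ from the searched motif by 1 letter and those of *Acot4* and *Creb3l3* by 2 letters.

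None of the 3 regulators and related products was called. *Fgf21*, a hormone that the liver secretes on fasting, read 116, 165, 156, 169 and 142 in NC and 199, 313, 89, 479 and 129 in CL. The CL mice reached both above and below the NC range, with an SD of 0.97 on the log2 scale, the largest of the 33 genes in any diet, and the difference was 0.45 (SE 0.36, adjusted p = 0.448). *Creb3l3*, a transcription factor that acts on *Fgf21* and on lipid genes, differed by -0.15 (SE 0.11, adjusted p = 0.403). *Vnn1*, a pantetheinase, differed by -0.04 (SE 0.20, adjusted p = 0.928).

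Of the 10 calls between CL and NC, those of *Cpt1a*, *Crat*, *Hadha*, *Acot3* and *Cyp4a31* held with each of the 15 mice left out in turn. *Cyp4a14* held in 9 of these 15 fits, *Acot4* in 8, *Acot12* in 6, *Acadvl* in 2 and *Acaa2* in 1, that without CL mouse 2. The call of *Acot3* also held under all 12 other settings tried, though its only probe set stood for it in each. That of *Hadha* was lost only in the signals as deposited. That of *Cyp4a31* was lost with the methods' test and with probe sets of several symbols. *Cpt1a* was called under 10 of the 12 settings and *Crat* under 8.

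**Figure D2:**
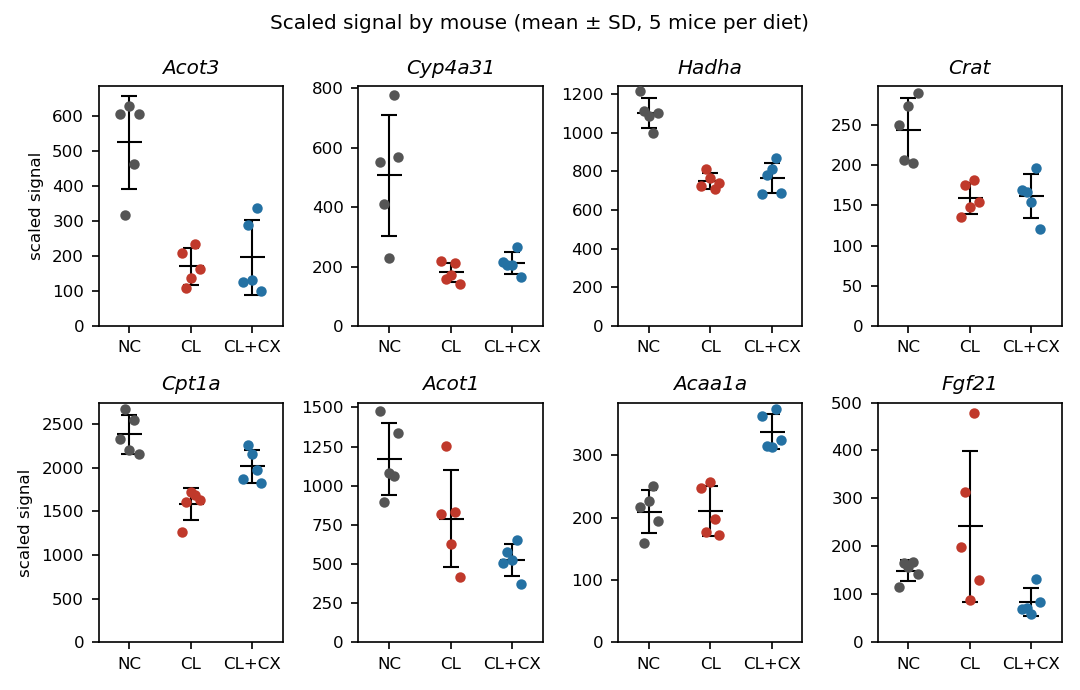
Scaled signal (linear axis from 0) of 8 genes in each mouse, with points for mice and bars for the mean and SD of 5 mice per diet. NC lies above CL without overlap for *Acot3*, *Cyp4a31*, *Hadha*, *Crat* and *Cpt1a*, and CL+CX lies above both other diets for *Acaa1a*.

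With the scaling used here, hepatocyte markers differed between the diets much as these genes did. The 11 hepatocyte markers had a median difference of -0.32 between CL and NC, compared with -0.34 for the 33 genes, and 2 of the 11 were lower in CL and none was higher. Over all genes tested, 6.78% were lower and 7.21% higher. Their summed signal ranged from 79180 to 100100 in NC, from 59140 to 90630 in CL and from 63420 to 78500 in CL+CX. CL mouse 2, which had the highest oxidation genes, also had the highest hepatocyte sum in CL, and its median over the hepatocyte markers, 0.13 on the log2 scale from the NC mean, compared with -0.58 to -0.28 in the other CL mice. Without it, 8 of the 11 hepatocyte markers were lower in CL, with a median of -0.40, beside -0.42 for the 33 genes. In that fit 13.1% of all genes were lower. The likeness depended on the scaling. After quantile normalization with all mice, the hepatocyte median between CL and NC was 0, beside -0.17 for the 33 genes. Between CL+CX and NC these medians were -0.01 and -0.14. In the signals as deposited, the medians between CL and NC minus that of all probe sets were alike, at -0.23 and -0.25.

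Macrophage markers differed between CL+CX and CL, where the 33 genes hardly did. All 14 tested macrophage and monocyte markers were higher in CL than in NC, with a median of 1.97, and 8 of the 14 were lower with β-cryptoxanthin, with a median of -1.04 beside 0.04 for the 33 genes. Their summed signal ranged from 1100 to 2425 in NC, from 6739 to 8529 in CL and from 2274 to 5480 in CL+CX. CL mouse 2 had the lowest macrophage sum of its group, 6739, still above all NC and CL+CX mice, and its median over these markers was 1.76, beside 1.86 to 2.41 in the other CL mice. Of the sinusoidal endothelial markers, none of 9 was called between CL and NC, and of the stellate cell and myofibroblast markers 2 of 9 were higher in CL. Over all genes tested, 7.21% were higher in CL than in NC, and 1.79% were lower in CL+CX than in CL. The part of a changed cell composition in the lower oxidation genes was not tested.

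**Figure D3:**
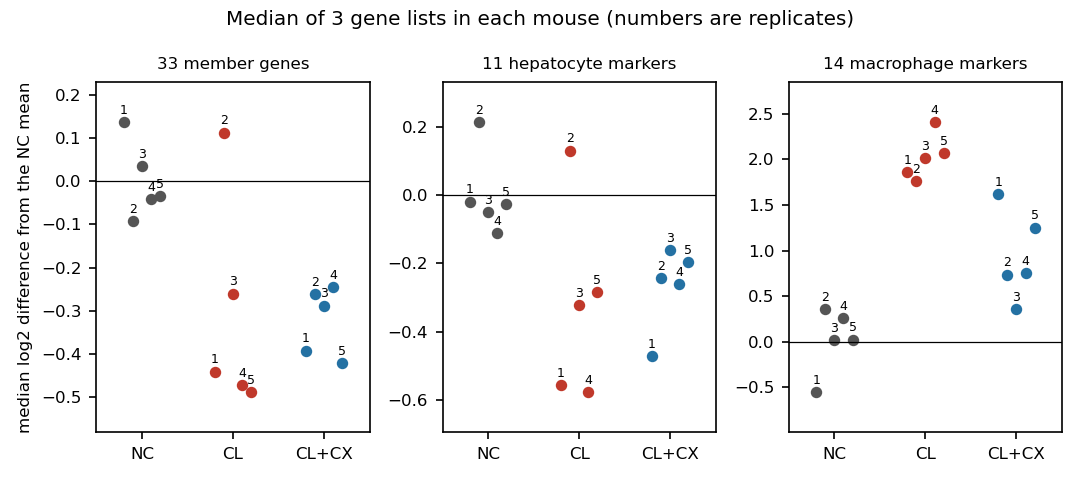
Median log2 difference from the NC mean in each mouse (numbers are replicates) over the 33 oxidation and ketogenesis genes, 11 hepatocyte markers and 14 macrophage markers, each panel with its own vertical scale. CL 2 lies at 0.11 and 0.13 in the first 2 panels, above the other CL mice, and with them in the third.

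The 15 mice were also compared across the array's control probe sets for β-actin, whose difference between the 3′ and 5′ probes rises with RNA degradation or incomplete labelling. It was 0.94 ± 0.09 in NC, 0.82 ± 0.10 in CL and 1.07 ± 0.10 in CL+CX (log2, mean ± SD, n = 5), and all CL+CX mice were above all CL mice. With this difference as a covariate, 4 of the 33 genes were called between CL and NC, none between CL+CX and CL, and 6 between CL+CX and NC. Its part in the results was otherwise not tested.

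With β-cryptoxanthin in the CL diet, 1 of the 33 genes (3.03%) was higher than in CL and none was lower, compared with 1.48% higher and 1.79% lower among all genes tested. At an unadjusted p under 0.05, 2 of the 33 were higher and 2 lower, beside 9.83% and 8.95% of all genes, and the methods' test called 2 higher and none lower. The median difference was 0.04 on the log2 scale against 0.02 over all genes. For the 32 genes not past the test, the 95% interval of the difference lay within 0.5 on the log2 scale on either side of 0 in 20 genes and within 1 in 30 genes. In 2 of the 33 genes (6.06%), *Acaa1a* and *Cpt1a*, every CL+CX mouse was above every CL mouse, compared with 2.79% of all genes. With CL mouse 2 left out, 1 gene was higher and none lower, beside 1.16% and 1.55% of all genes, with a median of 0.10.

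The gene called was *Acaa1a*, a peroxisomal thiolase. It read 247, 177, 257.5, 198 and 171 in CL and 362, 314, 313, 373 and 324 in CL+CX. All CL+CX mice were above all CL and all NC mice, a 1.62-fold higher level than in CL (log2 0.70, SE 0.15, adjusted p = 0.0247). Another probe set of *Acaa1a* differed by 0.34 (adjusted p = 0.234), and the 2 probe sets annotated to more than 1 *Acaa1* gene differed by 0.06 (adjusted p = 0.815) and 0.04 (adjusted p = 0.893). The call thus rests on 1 probe set, which is annotated with the suffix that marks possible cross-hybridization. It was lost without CL+CX mouse 2, 3 or 4.

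*Cpt1a* read 1870, 2263, 2152, 1972 and 1818 in CL+CX, above the CL range of 1266 to 1725 (log2 0.35, SE 0.12, adjusted p = 0.104), which did not pass the test. Its CL+CX mice overlapped with NC, from which they differed by -0.24 (adjusted p = 0.197). *Fgf21* read 70.2, 72.5, 58.6, 133 and 84.3 in CL+CX, where 4 of 5 mice were below all CL mice (log2 -1.34, SE 0.36, adjusted p = 0.0538), just outside the threshold. *Bdh1* differed by 0.25 between CL+CX and CL (SE 0.12, adjusted p = 0.29).

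For *Acot3*, *Cyp4a31*, *Hadha* and *Crat*, all lower in CL, the difference between CL+CX and CL was within the spread of the mice. *Cpt1a*, described above and also lower in CL, was unlike them, with every CL+CX mouse above every CL mouse. Its 95% interval, not adjusted for the number of probe sets, was 0.11 to 0.60, while its adjusted p was 0.104. *Acot3* read 126, 288, 131, 336 and 99.7 in CL+CX, in which 2 mice were above and 1 below the CL range (log2 0.09, 95% interval -0.61 to 0.79, adjusted p = 0.917). *Cyp4a31* read 216, 206, 204, 267 and 164 in CL+CX (log2 0.23, 95% interval -0.32 to 0.77, adjusted p = 0.675). *Hadha* read 684, 778, 812, 866 and 685 in CL+CX, on both sides of the CL range (log2 0.02, 95% interval -0.19 to 0.24, adjusted p = 0.926). *Crat* differed by 0.01 (95% interval -0.30 to 0.33, adjusted p = 0.972). Larger differences that did not pass the test were those of *Acot4* (log2 -0.47, SE 0.25, adjusted p = 0.314) and of *Acot1*, which was not called in CL (log2 -0.52, SE 0.24, adjusted p = 0.251).

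**Figure D4:**
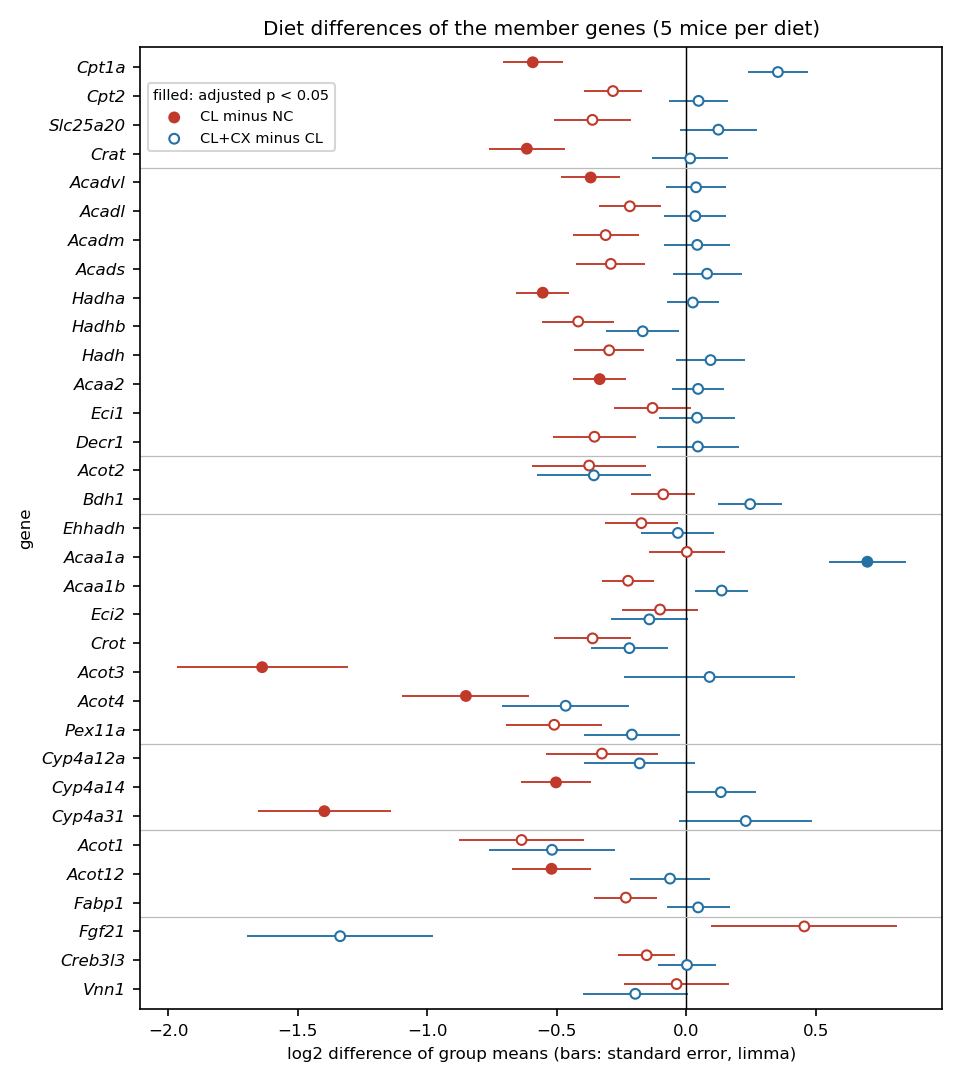
Log2 difference of group means (points) with the standard error from limma (bars) for the 33 genes in the order of their roles, CL minus NC in red and CL+CX minus CL in blue, filled where the adjusted p was under 0.05. The red points lie left of 0 in 31 genes, with 10 filled, and the blue points scatter around 0, with *Acaa1a* filled.

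Compared with NC, 11 of the 33 genes (33.3%) were lower in CL+CX and 1 was higher, against 4.89% lower and 5.11% higher among all genes tested. This comparison shares its NC mice with the first and its CL+CX mice with the second, so that it is not independent of them. The median difference was -0.29 on the log2 scale against -0.04 over all genes. In 15 of the 33 genes (45.5%), every CL+CX mouse was below every NC mouse, compared with 8.75% of all genes. The genes lower were *Crat*, *Hadha*, *Hadhb*, *Acot2*, *Crot*, *Acot3*, *Acot4*, *Pex11a*, *Cyp4a31*, *Acot1* and *Acot12*, and 6 of them were among the 10 lower in CL. With each of the 15 mice left out in turn, *Acot2* held in 5 fits, *Acot12* in 10 and *Pex11a* in 11. *Crot* held in 12 and *Crat* in 14, and the other lower genes held in all 15. Under the 12 other settings, calls held least often for *Acot2* (6) and *Cyp4a31* (7). Calls differed between the tested probe sets of 7 genes: *Acaa1a*, *Acaa2*, *Acot12*, *Crat*, *Cyp4a31*, *Hadhb* and *Pex11a*. Without CL mouse 2, which enters this comparison only through the spread that the 3 diets share, 14 were lower, with 7.92% of all genes lower in that fit.

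The thioesterases made up 5 of the 11. *Acot1* read 509, 578, 524, 651 and 370 in CL+CX, below all NC mice, a 2.23-fold lower level (log2 -1.15, SE 0.24, adjusted p = 0.00907). *Acot4* read 59.4, 103, 51.9, 66.7 and 46.5 in CL+CX, a 2.49-fold lower level than in NC (log2 -1.32, SE 0.25, adjusted p = 0.00458), and *Acot3* was 2.92-fold lower (log2 -1.55, SE 0.33, adjusted p = 0.00951). *Acot2* differed by -0.73 (adjusted p = 0.0465), and *Acot12* by -0.58 (adjusted p = 0.0258). In the RefSeq table *Acot2*, *Acot1*, *Acot4* and *Acot3* lie next to each other on chromosome 12 with no other protein-coding gene between them, and the probe set annotated to more than 1 *Acot* gene was lower as well (log2 -1.38, adjusted p = 0.00243).

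*Hadhb* read 1707, 1761, 1788, 1811 and 1660 in CL+CX, all below NC, with an SD of 0.05 that was the smallest of the 33 genes in this diet (log2 -0.59, SE 0.14, adjusted p = 0.0169). Another bright probe set of *Hadhb* differed by 0.20 (adjusted p = 0.463) and a dim one by -0.41 (adjusted p = 0.437). The call was lost with the mean of probe sets. *Crot* read 2503, 2669, 3327, 2961 and 3393, also below all NC mice (log2 -0.58, SE 0.15, adjusted p = 0.0238). For *Pex11a* the difference from NC was -0.72 (SE 0.19, adjusted p = 0.0241), again with no overlap. These 3 genes did not pass the test in CL, and their differences between CL+CX and CL were -0.17, -0.22 and -0.21, with adjusted p of 0.55, 0.451 and 0.577.

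Among the mice of 1 diet, the 33 genes varied less than genes in general in NC and CL+CX, with a median SD of 0.15 and 0.13 on the log2 scale beside 0.21 and 0.20 over all genes. In CL the median SD was 0.28 beside 0.29. The 33 genes lay above the median of every array, which the filter required in only 1 diet, and the part of signal level in these spreads was not tested. NC mouse 1 was the highest of its diet in 21 of the 33 genes, CL mouse 2 in 24 and CL+CX mouse 4 in 20.

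Probe sets of the same gene did not always give the same value. Of the 55 tested probe sets annotated to 1 gene, 12 were lower in CL and none was higher, beside 6.34% and 5.9% of all probe sets tested. Several tested probe sets stood for 17 of the 33 genes, and between CL and NC their signs differed in 5 genes and their calls in 4. For *Cpt1a*, the probe set that stands for the gene differed by -0.59 while its other 2 differed by -0.01 (adjusted p = 0.985) and -0.02 (adjusted p = 0.956). The calls also differed for *Crat*, *Acaa2* and *Acot12*, whose other tested probe sets were not called. They differed by -0.54 and -0.41 for *Crat* (adjusted p = 0.142 and 0.393), -0.17 and -0.30 for *Acaa2* (0.431 and 0.202) and -0.27 for *Acot12* (0.316). All 4 calls were lost with the mean of probe sets. The second probe set of *Acot4* was lower as well (log2 -0.97, adjusted p = 0.016), as was that of *Cyp4a31* (log2 -1.47, adjusted p = 0.0106). For *Hadh*, a dimmer probe set differed by 1.27 (adjusted p = 0.114), with an SD among NC mice that was the largest of its 3 probe sets. In the gene table the *Cyp4a* genes of the list lie within one cluster on chromosome 4, and RNA of close relatives cannot be told apart by probes that match several of them.

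**Figure D5:**
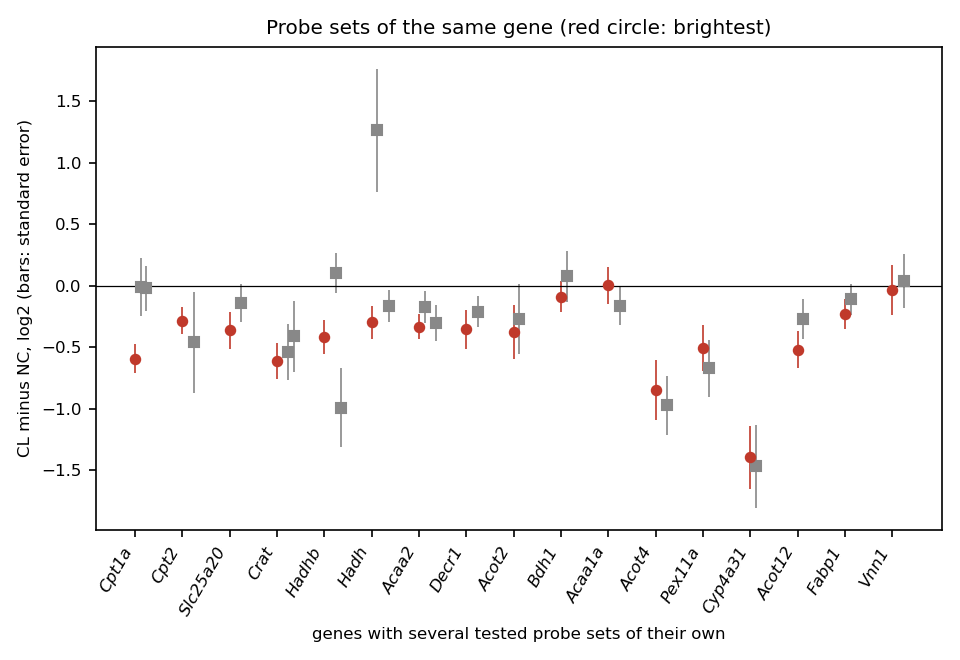
Log2 difference between CL and NC (points) with the standard error (bars) for each tested probe set of the 17 genes with several, red circles for the brightest, which stands for the gene, and grey squares for the others. The probe sets lie together for *Acot4* and *Cyp4a31* and apart for *Cpt1a*, *Hadhb* and *Hadh*.

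Other genes of the pathway were taken from a list of 65, of which 58 had a probe set of their own in the annotation used here and 52 were tested. Ketogenesis is represented thinly, since *Bdh1* is the only ketone body enzyme among the 33 genes and some central genes of the pathway were not analysed here. In CL, 13 of the 52 were lower and 2 higher than in NC, with a median of -0.25. Over all genes tested, 6.78% were lower and 7.21% higher, with a median of -0.08. In CL+CX, 1 of the 52 was lower than in CL, beside 1.79% of all genes. The largest differences lower in CL were in *Acacb*, whose product makes the malonyl-CoA that inhibits Cpt1 (log2 -1.31, SE 0.26, adjusted p = 0.00474), and in *Slc27a1*, a fatty acid transporter (log2 -0.91, adjusted p = 0.0285). *Slc22a5*, the carnitine transporter of the cell membrane, was lower as well (log2 -0.78, SE 0.12, adjusted p = 0.000903).

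*Hacl1*, for peroxisomal α-oxidation, *Acsl3*, an acyl-CoA synthetase, and *Pex16*, a factor of peroxisome assembly, were lower too, with log2 differences of -0.69, -0.61 and -0.59 and adjusted p of 0.0467, 0.021 and 0.033. The 2 genes higher in CL were *Acot9*, a mitochondrial thioesterase (log2 1.60, SE 0.16, adjusted p = 4.78e-05), and *Acad12* (log2 0.61, adjusted p = 0.0159). The gene lower in CL+CX than in CL was *Cyp4b1*, a microsomal hydroxylase (log2 -1.14, SE 0.24, adjusted p = 0.0247).

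Of 33 listed genes for PPARα, its partners and its other targets, 26 were tested, with 8 lower and 2 higher in CL than in NC. The median was -0.31. Over all genes tested, 6.78% were lower and 7.21% higher, with a median of -0.08. Between CL+CX and CL, 3 differed upward and 3 downward, where 1.48% of all genes were higher and 1.79% lower. *Ppara* itself read 1361, 1516, 1455, 1296 and 1363 in NC, 1007, 776, 943, 885 and 996 in CL and 1209, 1305, 1477, 1138 and 1130 in CL+CX. It was lower in CL than in NC (log2 -0.61, adjusted p = 0.00263) and higher in CL+CX than in CL (log2 0.44, adjusted p = 0.0428), and the CL mice overlapped with neither diet. *Rxra*, its partner on DNA, read 641, 585, 660, 500 and 569 in NC, 448, 368, 476, 434 and 501 in CL and 578, 611, 704, 640 and 695 in CL+CX. It was likewise lower in CL (log2 -0.41, adjusted p = 0.0307) and higher in CL+CX than in CL (log2 0.54, adjusted p = 0.0258), where the mice did not overlap.

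The coactivators *Ppargc1a* and *Ppargc1b* were lower in CL, with log2 differences of -1.33 and -1.01 (adjusted p = 0.000757 and 0.000621). Between CL+CX and CL, *Ppargc1b* was higher (log2 1.19, adjusted p = 0.00264) and *Ppargc1a* differed by 0.32 (adjusted p = 0.421). The target with the largest difference was *Lpl*, lipoprotein lipase, higher in CL than in NC (log2 2.21, adjusted p = 4.8e-05) and lower with β-cryptoxanthin than without it (log2 -0.90, adjusted p = 0.0408). *Cd36*, a fatty acid translocase, was higher in CL as well (log2 0.84, adjusted p = 0.027). *Retsat*, a retinol saturase, and *Klb* and *Fgfr4*, which form a receptor for endocrine Fgf hormones, were lower in CL (log2 -0.84, -0.64 and -0.48, adjusted p = 0.00788, 0.00306 and 0.0425). *Pdk4*, a kinase that restrains glucose oxidation, and *Hilpda*, a lipid droplet protein, were lower in CL+CX than in CL, both with a log2 difference of -1.48 (adjusted p = 0.0428 and 0.0192).

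Genes that follow the time of day and feeding also differed between the diets. With β-cryptoxanthin, 8 of 16 tested clock genes were raised and 4 were lower, and of 11 tested genes of the fasting response 2 were lower and none was higher. The fasting genes also differed from NC, with 4 of 11 lower and none higher in CL (median -0.53 on the log2 scale) and 7 of 11 lower and none higher in CL+CX (median -0.99). Of the clock genes, 1 was higher and 2 were lower in CL than in NC. Against NC, 7.21% of all genes tested were higher and 6.78% lower in CL, and 4.89% were lower in CL+CX. *Nr1d1* read 3.3, 4.0, 6.1, 18.3 and 27.1 in CL, in part below the array median, and 56.4, 50.4, 43.9, 57.9 and 48.8 in CL+CX. *Igfbp1*, a gene that fasting raises, read 1178, 2521, 3448, 2746 and 1500 in CL and 489, 438, 546, 1110 and 730 in CL+CX. No CL+CX mouse overlapped with a CL mouse in either gene. The hour at which the mice were killed and whether they had eaten were not given in the sources used here, and their part in the values of the 33 genes was not tested in any of the 3 comparisons.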

How the data were processed

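Livers of 15 mice were measured by the authors with 1 array each, scanned and summarised with MAS5. The authors deposited 1 MAS5 signal per probe set, an intensity that is not on a log scale, with 75th percentiles of 41.5 to 79 and medians of 9.48 to 16.7 between arrays, so they hold neither the scaling nor the filter on Present calls named in the methods. Mice were assigned to diets by their labels. Here the 64 control probe sets were left out, all arrays were brought to the geometric mean of their 75th percentiles, 54.1, values under 1 were raised to 1 (11.3% of values) and log2 was taken. Of 45037 probe sets, 20340 were tested, those that reached the array median in every mouse of 1 diet or more. The 3 diets were modelled together by limma (version 3.58.1, R 4.3.3), on 12 residual degrees of freedom before moderation, and p was adjusted by the Benjamini-Hochberg method over the probe sets tested, with a threshold of 0.05. The model was tested on simulated data.

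By the platform annotation, 34945 probe sets carry 1 gene symbol, 932 several and 9160 none. A gene was represented by the brightest of its single-symbol probe sets, by mean signal, and probe sets of several symbols were counted and not named. All 35 genes were named where measured, and up to 8 genes past the test with the largest difference from each of the lists of other oxidation genes and of PPARα and its partners. The genes, lists and tests were chosen with earlier results of these data known. The number of arrays limits the precision, and signals near the array median are measured with little of it. The labels' replicate numbers did not pair the mice: within same-numbered mice, the residuals from the diet means correlated at -0.0141 to 0.135 for CL and NC, not above 0.1 in every pair. The alternatives tried were no filter, quantile normalization, signals as deposited, a filter at the 75th percentile, an offset of 16, a robust prior with a trend, the methods' test, fits of only 2 groups, the replicate number as a block, the β-actin difference as a covariate, the mean of a gene's probe sets, probe sets of several symbols, and each mouse left out. Matplotlib 3.10.9 and Python 3.11.15 served for the figures.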

Additional observations from a re-analysis of the deposited data

Results flagged for a closer look

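Among 99 groups of 5 mice (33 genes in 3 diets), 3 held a mouse whose gap to the nearest other was over 0.71 of the whole range of its group, where chance gives about 1 in 20 groups. All 3 were in the CL diet. The scaled signal of *Cpt1a* was 1266 in CL mouse 1 and 1604 to 1725 in the other 4. That of *Acadl* was 2309 in CL mouse 2 and 1552 to 1709 in the others, and that of *Ehhadh* was 5594 in the same mouse and 3202 to 3660 in the others. Without CL mouse 2, *Acadl* was lower in CL than in NC (log2 -0.32, SE 0.09, adjusted p = 0.0255 with limma), and *Ehhadh* differed by -0.31 (SE 0.10, adjusted p = 0.0522). Without CL mouse 1, the call of *Cpt1a* was kept.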

How the results depend on the processing

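Of the 33 genes, the number called between CL and NC, between CL+CX and CL, and between CL+CX and NC was 10, 1 and 12. It was 4, 0 and 5 without a filter, 2, 0 and 4 in the signals as deposited, and 4, 0 and 6 with the β-actin covariate. It was 6 between CL and NC when only those 2 diets were fitted. Between CL+CX and CL it was 2 with the filter at the 75th percentile, the offset of 16, the methods' test or the mean of probe sets, and 0 with probe sets of several symbols. With 1 mouse left out it ranged from 5 (without NC 1 or 5, or CL 1, 3 or 4) to 22 (without CL 2), from 0 (without CL+CX 2, 3 or 4) to 2 (without CL 3 or 5) and from 8 (without NC 1 or 5) to 15 (without CL 2).

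Over all probe sets the 3 counts were 2490, 637 and 1989. They were 1127, 38 and 605 without a filter and 1138, 1 and 663 with the β-actin covariate. Between CL+CX and CL the count was 81 in the signals as deposited, 995 with the offset and 975 with the methods' test, which called 1584 between CL and NC. Fits of only 2 diets called 196 between CL+CX and CL and 3318 between CL+CX and NC, and with means of probe sets 1593 and 1218 genes were called in the comparisons with NC. With 1 mouse left out the counts ranged from 1730 (without NC 1) to 3909 (without CL 2), from 105 (without CL+CX 3) to 967 (without CL 5) and from 1197 (without NC 1) to 3047 (without CL 2).

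With the replicate number as a block, 7, 2 and 10 of the 33 genes were called, and 2145, 366 and 1671 probe sets. The numbers do not pair the mice by the labels or by the correlation of their deviations. Of the called values, 1 changed sign: *Acaa1a* between CL+CX and NC was -0.25 with probe sets of several symbols. Among values not called, 34, 60 and 19 of those recomputed for the 3 comparisons changed sign. The causes were not tested. All 33 genes lay above the array median on every array, and with 5 mice per diet the median standard error of a log2 difference was 0.15.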
